A study of Mus musculus with 59 samples.

Results

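Levels of 7 genes of the innate lymphoid programme were followed across a cell line and primary mouse progenitors that are labelled as lacking the transcription factor TCF-1 and received TCF-1 constructs. The genes were Zbtb16, Rora, Nfil3, Icos, Pdcd1, Il17rb and Il18r1, which are 7 of the 45706 genes listed in every library. They were taken by symbol from a named list of the programme, and every member is accounted for below.

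The 58 RNA-seq libraries used here came from 15 groups. In the cell line there were 7 groups with 2 libraries each. The line was Tcf7 KO scid.adh, a mouse thymic lymphoma line, and that label applies to every group, empty vector included. Its cells received a retrovirus (RV) with DHMG TCF-1, DL7 TCF-1, DL6 TCF-1, DL2 TCF-1, DL1 TCF-1, WT TCF-1 or empty vector (EV), and transduced live cells were sorted after 72 h. The HMG box is the part of TCF-1 that binds DNA. The labels do not say which residues any construct lacks. In primary cells there were 8 groups. Bone marrow progenitors of the strain Tcf7eGFP fl/fl Cre+, with titles that say TCF1KO, received L1d, L7d, HMGd, P45 or EV and were cultured on OP9-DLL1, a stroma that presents a Notch ligand. After 7 days they were sorted as DN2 cells (L1d, L7d and P45) or DN1 cells (HMGd, L1d, L7d, P45 and EV). P45 is the wild-type form, the name that titles of the line's WT libraries also carry. DN2 cells with HMGd or EV were not analysed here.

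As models, the line is a tumour line in culture, its titles share a tag (HMG-E10) whose meaning is not given, and the promoter that drives Cre and the age of the mice are not given. Each primary group had 2 replicates, each the sum of 2 or 3 libraries that share a number with the letter B in their titles. Replicate 1 of DN1 L1d was the sum of 2 libraries, because the file of 1 further library was incomplete. Nothing in the labels says that replicates were separate cultures or animals, so p-values measure the spread between these samples, which may be technical.

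Innate lymphoid cells are lymphocytes without rearranged antigen receptors. Their precursors and early T cell progenitors share much of their wiring, TCF-1 among it, and a Notch signal favours the T cell fate. Zbtb16 encodes PLZF, a zinc finger factor that marks the innate lymphoid precursor. Rora encodes a nuclear receptor needed for group 2 innate lymphoid cells, and Nfil3 a basic leucine zipper factor needed for the common innate lymphoid progenitor. Icos encodes a costimulatory receptor of the CD28 family, and Pdcd1 encodes PD-1, an inhibitory receptor that is also found on innate lymphoid precursors. Il17rb encodes the receptor subunit that binds IL-25, and Il18r1 the ligand-binding chain of the IL-18 receptor, which signals together with the product of Il18rap.

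Each cell line library held 3.82 to 9.48 M reads in genes and each primary replicate 9.06 to 34.39 M. Levels are CPM, the authors' reverse-strand counts divided by the library size in M reads after TMM scaling. Tcf7 read 1720 to 3765 CPM with a TCF-1 construct in the line, against 550 and 564 CPM with EV. The line's EV libraries thus held Tcf7 RNA, so its level does not check the knockout label, and counts per gene do not show which part of Tcf7 is lost. In primary cells Tcf7 read 625 to 1108 CPM with a construct, against 3.32 and 4.26 CPM in DN1 EV. Tcf7 thus varied among libraries with a construct, in the line and in primary cells. The part of its level in differences between constructs was not tested. Il2ra, which encodes the CD25 used in the sort, read 372 to 1277 CPM in DN2 and 0.425 to 3.41 CPM in DN1. Kit read 261 to 308 CPM in DN2 and 93.1 to 114 CPM in DN1, although the gates put DN2 cells at low c-Kit and DN1 cells at high c-Kit. The 16 T lineage markers summed to 510.1 to 1562 CPM in DN2 and 70.51 to 110 CPM in DN1. Il2ra is among the 16, so the sort on CD25 itself sets much of this difference. In DN1 cells 3 to 6 of the 16 were at 0 in each group, and 14 granulocyte and monocyte markers summed to 12560 to 22210 CPM, against 1213 to 4697 CPM in DN2 cells. In the line the T lineage markers summed to 4041 to 4708 CPM and the granulocyte and monocyte markers to 3.093 to 19.42 CPM.

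The members lie on chromosomes 9 (Rora and Zbtb16), 14 (Il17rb), 1 (Pdcd1, Il18r1 and Icos) and 13 (Nfil3). Rora spans chr9:68653786-69388246 on the plus strand and Zbtb16 chr9:48654297-48836222 on the minus strand. Nfil3 spans chr13:52967209-52981073 on the minus strand, and Icos chr1:60977927-61000320 on the plus strand. Pdcd1 spans chr1:94038305-94052553 on the minus strand. Il17rb spans chr14:29996135-30008896 on the minus strand, and the last 10220 bases of its transcribed span are shared with Actr8 on the plus strand. Il18r1 spans chr1:40465552-40500854 on the plus strand. It starts 136 bases after the end of Il1rl1, which encodes the IL-33 receptor and runs on the same strand. All positions are in GRCm38, with genes as in GENCODE M21.

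The bases just before the annotated starts are shown for the 4 members whose called changes were followed most closely below. RefSeq (GRCm38.p6) gives 250 bases before the start for 5 of the 7 members, and for Il17rb and Il18r1 only the stretch outside the neighbouring gene is printed. All are written 5′ to 3′ on the gene's strand, at chr9:68653536-68653785 for Rora, chr14:30008897-30009022 for Il17rb, chr1:94052554-94052803 for Pdcd1 and chr1:40465416-40465551 for Il18r1.
Rora: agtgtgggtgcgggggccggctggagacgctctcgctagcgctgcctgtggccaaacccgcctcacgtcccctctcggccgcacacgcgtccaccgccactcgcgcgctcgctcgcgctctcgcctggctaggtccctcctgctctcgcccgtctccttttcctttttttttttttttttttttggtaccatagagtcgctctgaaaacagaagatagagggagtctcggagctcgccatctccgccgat
Il17rb: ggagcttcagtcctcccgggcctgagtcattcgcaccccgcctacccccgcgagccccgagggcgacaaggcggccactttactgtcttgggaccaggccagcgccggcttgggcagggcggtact
Pdcd1: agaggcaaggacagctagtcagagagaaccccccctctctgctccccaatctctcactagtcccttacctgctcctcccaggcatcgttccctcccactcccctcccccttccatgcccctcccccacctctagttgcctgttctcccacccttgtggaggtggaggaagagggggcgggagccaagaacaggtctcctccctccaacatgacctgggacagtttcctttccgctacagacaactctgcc
Il18r1: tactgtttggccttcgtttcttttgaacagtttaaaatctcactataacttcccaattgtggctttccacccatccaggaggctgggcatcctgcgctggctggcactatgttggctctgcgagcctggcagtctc
The share of G and C was 61.2% before Rora, 69.8% before Il17rb, 60.4% before Pdcd1 and 50.7% before Il18r1, against a mean of 53.3% over all windows of 250 bases. The letters CTTTGA or CTTTGT, the core that TCF factors bind, were searched on both strands. They occurred in none of the 7 windows of 250 bases that the table holds for members (Il18r1 has 3 starts, with windows that partly overlap), and in 27.7% of the 32536 windows of all genes. The GATA letters AGATAA or TGATAA also occurred in none, and in 16.5% of all windows. The RUNX letters TGTGGT or TGCGGT occurred in the Il17rb window alone, and in 18.5% of all windows. That match, TGCGGT, lies 192 bases before the start and outside the printed stretch. No letter is in capitals, because no match lies in the printed stretches, and no match says only that these letters are not there.

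In the cell line, only Rora, Il17rb and Nfil3 had enough reads to be tested. Il18r1 and Pdcd1 had 0 reads in all 14 libraries, Icos had 1 read in 1 library, and Zbtb16 had at most 2 reads in a library. In primary cells all 7 were tested. Icos and Il17rb passed the filter on low counts there through DN2 cells, and neither passed it in the DN1 libraries alone, where no group held more than 8 Icos reads or 16 Il17rb reads. Their stage differences are therefore given as levels, and no test is read from them. Pdcd1 passed it in the DN1 libraries alone, with 73 reads in L7d, 33 in P45 and 8 to 13 in each other DN1 group. Per kilobase of exon, Il17rb was the highest of the 3 in the line, at 9.05 to 15.8 CPM per kb over the 14 libraries. Nfil3 read 2.55 to 9.06 CPM per kb there and Rora 0.356 to 1.501 CPM per kb. In primary cells Nfil3 was the highest, at 12.4 to 35.7 CPM per kb, above Zbtb16 at 0.842 to 7.79 CPM per kb. Pdcd1 reached 10.7 CPM per kb in DN2 cells and was as low as 0.121 CPM per kb in DN1 cells.

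**Figure D1:**
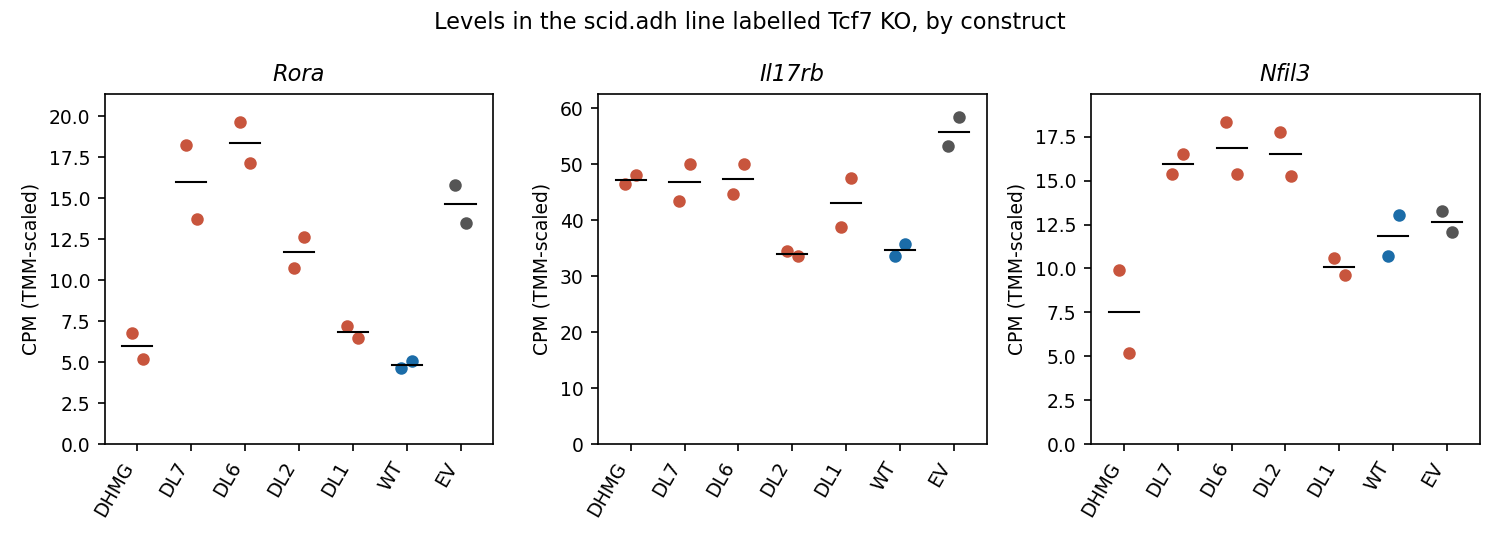
TMM-scaled CPM of Rora, Il17rb and Nfil3 in the scid.adh line labelled Tcf7 KO, by construct. Points are the 2 libraries of a group (blue WT, grey EV, red the other constructs) and bars their mean. Rora lies at 4.66 to 7.23 CPM with DHMG, DL1 and WT and at 10.7 to 19.6 CPM in the other 4 groups.

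Rora and Il17rb fell with WT TCF-1 in the line, and Nfil3 did not pass the test. Rora read 4.66 and 5.05 CPM with WT, against 15.8 and 13.5 CPM with EV. The libraries did not overlap, and the mean was 3.04-fold lower with WT (log2 fold change -1.60 ± 0.22 SE, adjusted p = 2.314e-07). Il17rb read 33.5 and 35.8 CPM with WT, against 53.3 and 58.4 CPM with EV. These libraries did not overlap either (log2 fold change -0.69 ± 0.11 SE, adjusted p = 3.362e-06). Nfil3 read 10.7 and 13 CPM with WT and 13.2 and 12.1 CPM with EV, and the groups overlapped (adjusted p = 0.73). Here and below, adjusted p is the Benjamini-Hochberg value over all genes of a fit, taken from the quasi-likelihood F test of edgeR, and a gene is called below 0.05. With WT, 24.9% of the 10939 genes tested were called in either direction and 12.6% were called lower, beside 2 of the 3 members tested.

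Other innate lymphoid genes of the line were lower with WT as well. Of 12 innate lymphoid precursor factors 9 were tested, 7 fell and 1, the transduced Tcf7, rose, with a median log2 fold change of -0.43 against 0.01 over all genes. Gata3, a factor needed for group 2 innate lymphoid cells and T cells alike, averaged 159 CPM with WT and 240 CPM with EV (log2 fold change -0.59, adjusted p = 3.09e-09). Bcl11b, a T cell commitment factor that group 2 cells also use, averaged 419 CPM with WT and 587 CPM with EV. Of 10 precursor surface genes 6 were tested, 4 fell and none rose. Itga4, an integrin chain, averaged 182 CPM with WT and 426 CPM with EV (log2 fold change -1.23, adjusted p = 1.09e-21). Among partners of the members, Il17ra, which pairs with Il17rb, averaged 61.8 CPM with WT and 85.2 CPM with EV (log2 fold change -0.46, adjusted p = 9.41e-05). Of the 13 T lineage markers tested 3 rose and 4 fell. Of the 2 tested markers of mast cells and granulocytes, Cpa3 averaged 4.76 CPM with WT and 40.4 CPM with EV, and Itgam 3.56 CPM with WT and 18.2 CPM with EV. In each group of the line 9 or 10 of the 11 mast cell and basophil markers were at 0, and the part of these genes in the members' levels was not tested.

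Against EV, Rora fell with DL1 and DHMG, Il17rb fell with DL1 and DL2, and Nfil3 fell with DHMG. These comparisons share the EV libraries, and differences between constructs were tested here only against WT. The 2 DHMG libraries also stood apart in quality. Forward reads were 8.56 and 8.49% of their stranded gene reads, against 5.44 to 5.83% in the other groups of the line. Counts outside genes were 73.65 and 73.91%, against 65.9 to 70.35%. The part of this in the DHMG differences was not tested. Rora read 7.23 and 6.46 CPM with DL1, below both EV libraries (log2 fold change -1.08 ± 0.21 SE, adjusted p = 0.000222). With DHMG it read 6.78 and 5.17 CPM, also below both EV libraries (log2 fold change -1.28 ± 0.25 SE, adjusted p = 0.000179). With DL2 it read 10.7 and 12.7 CPM, likewise lower than EV in both libraries, but the difference was not called (log2 fold change -0.35, adjusted p = 0.377). Rora with DL6, at 19.6 and 17.1 CPM, was above both EV libraries and was not called (adjusted p = 0.55). With DL7, at 18.2 and 13.7 CPM, it overlapped EV (adjusted p = 0.784).

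Il17rb had its lowest mean with DL2, at 34.5 and 33.6 CPM, and fell against EV (log2 fold change -0.71 ± 0.12 SE, adjusted p = 3.08e-05). With DL1 it read 38.8 and 47.5 CPM, below both EV libraries (log2 fold change -0.39 ± 0.11 SE, adjusted p = 0.00988). That call was lost without DL1 replicate 1 (adjusted p = 0.25) and without EV replicate 2 (adjusted p = 0.15). It was also lost with DESeq2 (adjusted p = 0.0796) and with only the compared groups in the fit (adjusted p = 0.0772). Il17rb was not called against EV with DL6 (44.7 and 49.98 CPM), DL7 (43.5 and 50.1 CPM) or DHMG (46.4 and 48.0 CPM), although all 6 libraries lay below both EV libraries. Nfil3 with DHMG read 9.91 and 5.17 CPM, below both EV libraries (log2 fold change -0.72 ± 0.25 SE, adjusted p = 0.0348). The call was lost without DHMG replicate 2 (log2 fold change -0.36, adjusted p = 0.482) and without either EV replicate (adjusted p = 0.174 and 0.0655), and also with DESeq2 (adjusted p = 0.0937). Nfil3 was not called with DL1 (10.6 and 9.61 CPM), DL2 (17.8 and 15.3 CPM), DL6 (18.4 and 15.4 CPM) or DL7 (15.3 and 16.5 CPM).

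Of the 3 members tested, those called against EV numbered 2 with DL1, where 11% of all genes were called, and 1 with DL2, where 5.06% were called. They numbered 2 with DHMG, where 17.1% of all genes were called. None was called with DL6, where 1.5% of all genes were called by the same test, or with DL7, where 2.78% were. At an unadjusted p under 0.05 there were 2 of the 3 with DL6 and 1 with DL7, and DESeq2 called none in either.

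Against WT, which these comparisons share, Rora was higher with DL6 (log2 fold change 1.92 ± 0.22 SE, adjusted p = 3.92e-09), DL7 (1.75 ± 0.21 SE, adjusted p = 1.58e-08) and DL2 (1.26 ± 0.24 SE, adjusted p = 0.000196). Neither DL1 (log2 fold change 0.52, adjusted p = 0.187) nor DHMG (0.32, adjusted p = 0.546) was called for Rora. Il17rb was higher than with WT for DL6 (log2 fold change 0.46 ± 0.11 SE, adjusted p = 0.00247), DL7 (0.42 ± 0.11 SE, adjusted p = 0.00245) and DHMG (0.45 ± 0.12 SE, adjusted p = 0.00844). It was not called for DL1 (adjusted p = 0.0784) or DL2 (adjusted p = 0.949). Without WT replicate 1 the 3 Il17rb calls were lost, with adjusted p of 0.0602, 0.0592 and 0.108 in the same order. They were also lost without DL6 replicate 2 (0.0846), without DL7 replicate 2 (0.0612), and without DHMG replicate 1 (0.0655) or 2 (0.0787). Nfil3 was higher with DL6 than with WT (log2 fold change 0.52 ± 0.19 SE, adjusted p = 0.0424), and that call was lost whichever of the 4 libraries was left out, with adjusted p up to 0.348. It was also lost with DESeq2 (adjusted p = 0.156), with no filter on low counts (0.0707) and with counts that ignore strand (0.0504). The innate lymphoid precursor factors, which include Tcf7, summed to 3354 to 3431 CPM with WT, the lowest of the TCF-1 constructs in the line. They summed to 5623 to 5644 CPM with DHMG, the highest. The part of construct level in these differences from WT was not tested.

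All 3 members tested were called for DL6 against WT, where 21.5% of all genes were called, and 2 for DL7, where 30.5% were. For DL2 1 was called (11.4% of all genes), and 1 for DHMG (14.8% of all genes). None was called for DL1, where 10.8% of all genes were called, 2 of the 3 had an unadjusted p under 0.05, and DESeq2 called none. From highest to lowest mean, Rora ordered as DL6 (18.4 CPM), DL7 (16), EV (14.6), DL2 (11.7), DL1 (6.85), DHMG (5.97) and WT (4.85). In that order the replicates of DL6, DL7 and EV overlapped from one to the next, as did those of DL1 and DHMG. Il17rb ordered as EV (55.8 CPM), DL6 (47.3), DHMG (47.2), DL7 (46.8), DL1 (43.1), WT (34.7) and DL2 (34), where the 4 groups between EV and WT overlapped one with the next and so did WT and DL2.

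Among primary cells the largest contrasts of the members lay between the stages. Of the 5 members that passed the filter in both stages, Zbtb16, Rora, Pdcd1 and Il18r1 were higher in DN2 than in DN1 with P45 and with L7d, and Nfil3 was lower. In cells with L1d, Zbtb16, Rora and Pdcd1 were higher, Nfil3 was lower, and Il18r1 was not called. Pdcd1 held few reads in DN1, so its stage differences with P45 and L1d are described only. DN2 and DN1 differ in many genes: 43.3% of 15010 genes were called with P45, 41.3% with L7d and 39.8% with L1d. Called higher in DN2 were 20.6%, 19.5% and 20.1% of all genes in the same order. In bulk samples such as these, fewer cells of a type and less RNA per cell cannot be told apart.

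**Figure D2:**
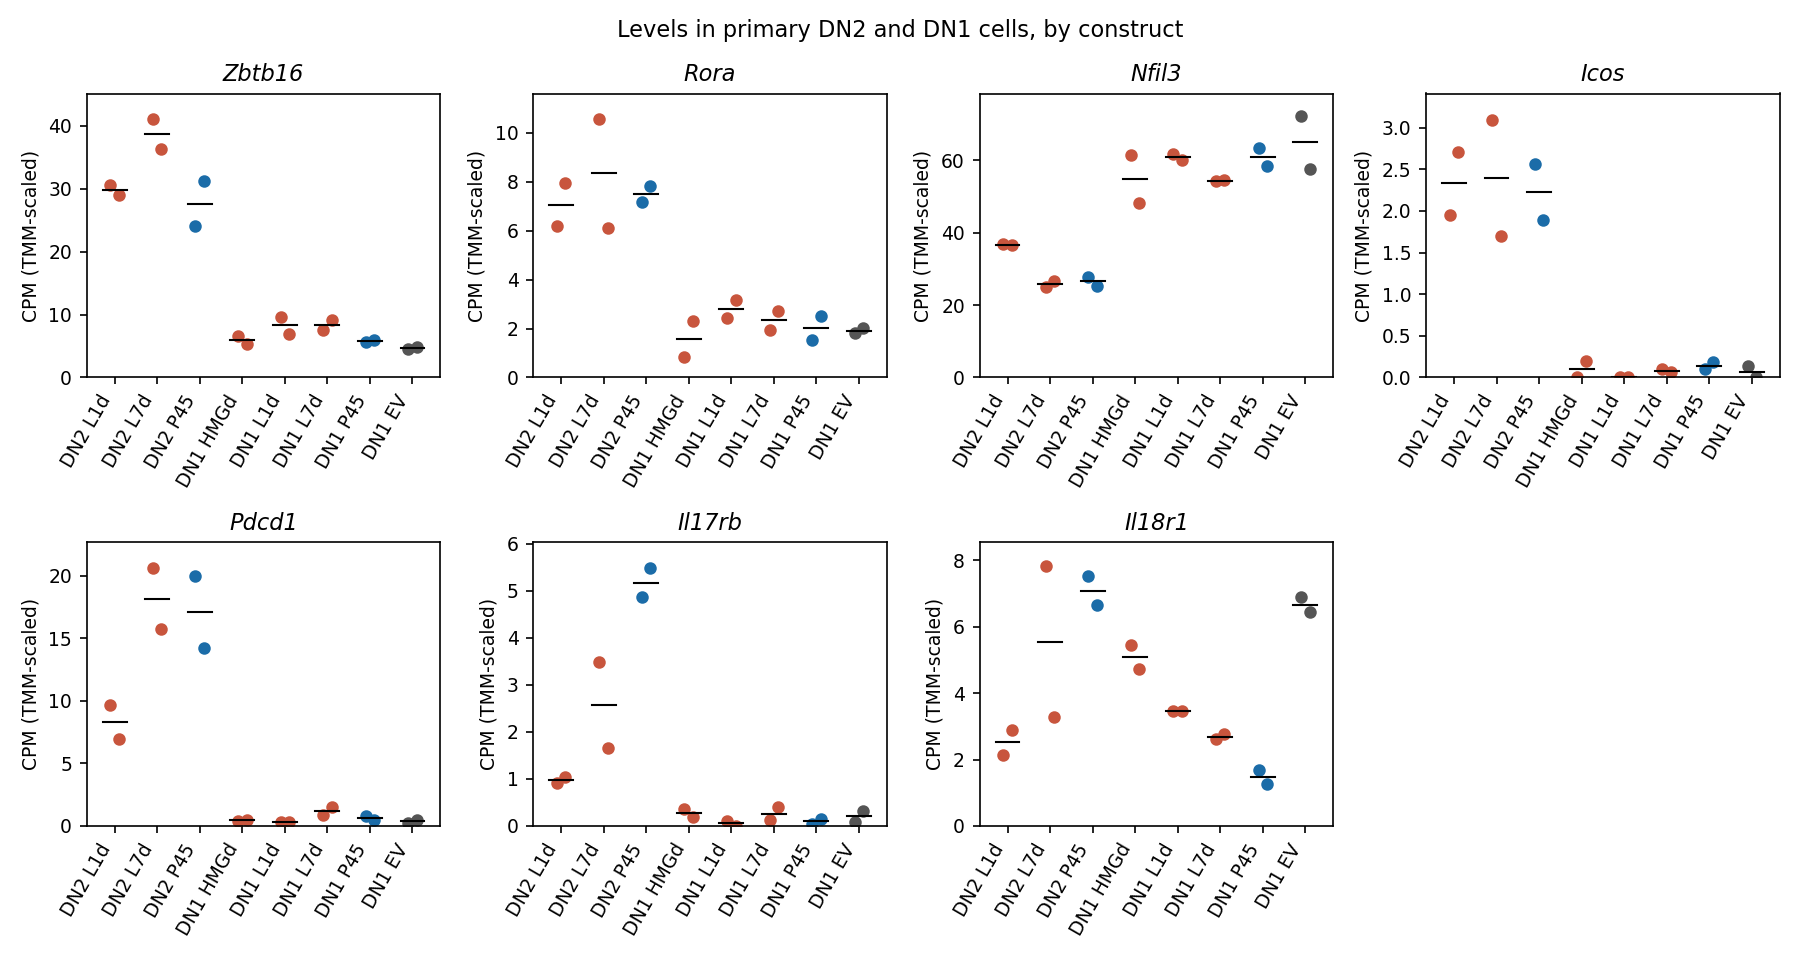
TMM-scaled CPM of the 7 genes in primary cells, with DN2 groups left of DN1 groups. Points are the 2 replicates of a group (blue P45, grey EV, red the other constructs) and bars their mean. Zbtb16, Rora, Icos, Pdcd1 and Il17rb lie higher in every DN2 replicate than in any DN1 replicate, Nfil3 lies lower, and Il18r1 overlaps between the stages.

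Zbtb16 read 24 and 31.2 CPM in DN2 P45, against 5.58 and 5.90 CPM in DN1 P45 (log2 fold change 2.26 ± 0.17 SE, adjusted p = 4.77e-08). It read 41.2 and 36.3 CPM in DN2 L7d and 30.6 and 29 CPM in DN2 L1d, against 7.60 and 9.10 CPM in DN1 L7d and 9.65 and 6.87 CPM in DN1 L1d. Every DN2 replicate was above every DN1 replicate, and the stage difference was called for L7d (log2 fold change 2.21 ± 0.16 SE, adjusted p = 3.73e-08) and L1d (1.89 ± 0.18 SE, adjusted p = 6.99e-07).

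Rora was also higher in DN2 in every replicate. It read 7.17 and 7.83 CPM in DN2 P45, against 1.54 and 2.5 CPM in DN1 P45 (log2 fold change 1.86 ± 0.34 SE, adjusted p = 0.000383). It read 10.6 and 6.12 CPM in DN2 L7d, against 1.95 and 2.73 CPM in DN1 L7d (log2 fold change 1.82 ± 0.33 SE, adjusted p = 0.000426). With L1d it read 6.19 and 7.93 CPM in DN2, against 2.41 and 3.18 CPM in DN1 (log2 fold change 1.30 ± 0.36 SE, adjusted p = 0.00996). The L1d call was lost without DN1 L1d replicate 1 (adjusted p = 0.0569), the replicate with an incomplete library left out, and without DN2 L1d replicate 2 (adjusted p = 0.0501).

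Nfil3, the highest of the members per kilobase, went the other way. It read 27.7 and 25.4 CPM in DN2 P45, against 63.4 and 58.5 CPM in DN1 P45 (log2 fold change -1.20 ± 0.11 SE, adjusted p = 5.92e-07). It read 25.1 and 26.8 CPM in DN2 L7d, against 54.2 and 54.5 CPM in DN1 L7d (log2 fold change -1.06 ± 0.11 SE, adjusted p = 2.29e-06). With L1d the replicates, at 37.0 and 36.5 CPM in DN2 and 61.7 and 60.01 CPM in DN1, were closer together but did not overlap (log2 fold change -0.73 ± 0.12 SE, adjusted p = 0.000142).

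Icos and Pdcd1, the 2 receptors of the CD28 family among the members, were near 0 in DN1 cells. Icos read 2.56 and 1.90 CPM in DN2 P45, against 0.0962 and 0.181 CPM in DN1 P45. It read 3.09 and 1.70 CPM in DN2 L7d, against 0.0957 and 0.0667 CPM in DN1 L7d. DN1 L1d held 0 Icos reads and DN2 L1d held 74, at 1.96 and 2.71 CPM. With a floor of 3 counts over the DN1 L1d group, which stands at 0.113 CPM, Icos was at least 20.7-fold higher in DN2 L1d. These values describe the libraries, since Icos was tested only because of its DN2 reads.

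Pdcd1 read 19.9 and 14.2 CPM in DN2 P45, against 0.818 and 0.482 CPM in DN1 P45 (log2 fold change 4.77 ± 0.33 SE). It read 20.6 and 15.7 CPM in DN2 L7d, against 0.862 and 1.53 CPM in DN1 L7d (log2 fold change 3.92 ± 0.30 SE, adjusted p = 5.74e-08). With L1d it read 9.65 and 6.95 CPM in DN2, against 0.345 and 0.279 CPM in DN1 (log2 fold change 4.75 ± 0.45 SE). The DN1 values rest on 33 reads with P45, 73 with L7d and 8 with L1d. No test is read from the P45 and L1d differences, where Pdcd1 held few DN1 reads. Every DN2 replicate was above every DN1 replicate.

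Il17rb read 4.87 and 5.48 CPM in DN2 P45, against 0.0481 and 0.150 CPM in DN1 P45, which rest on 1 and 5 reads. It read 3.49 and 1.67 CPM in DN2 L7d, against 0.128 and 0.400 CPM in DN1 L7d. With L1d it read 0.912 and 1.04 CPM in DN2, against 0.115 and 0 CPM in DN1. DN2 was higher in every replicate, but on 31 reads in DN2 L1d against 1 read in DN1 L1d. The ratio of summed reads per library size was 26.1, with an exact 95% counting interval of 4.35 to 1064.

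The low Il17rb counts of DN1 cells stand beside more reads on the other strand. DN1 groups held 1 to 16 reads on the Il17rb strand and 13 to 33 on the opposite one, where Actr8 overlaps the gene. DN2 groups held 31 reads against 21 on the opposite strand with L1d, 105 against 27 with L7d and 242 against 29 with P45. With counts that ignore strand, the fitted log2 fold change between the L1d stages was 1.08, against 4.48 on the Il17rb strand. In the line the opposite strand held 28 to 67 reads per group and the Il17rb strand 336 to 737.

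**Figure D3:**
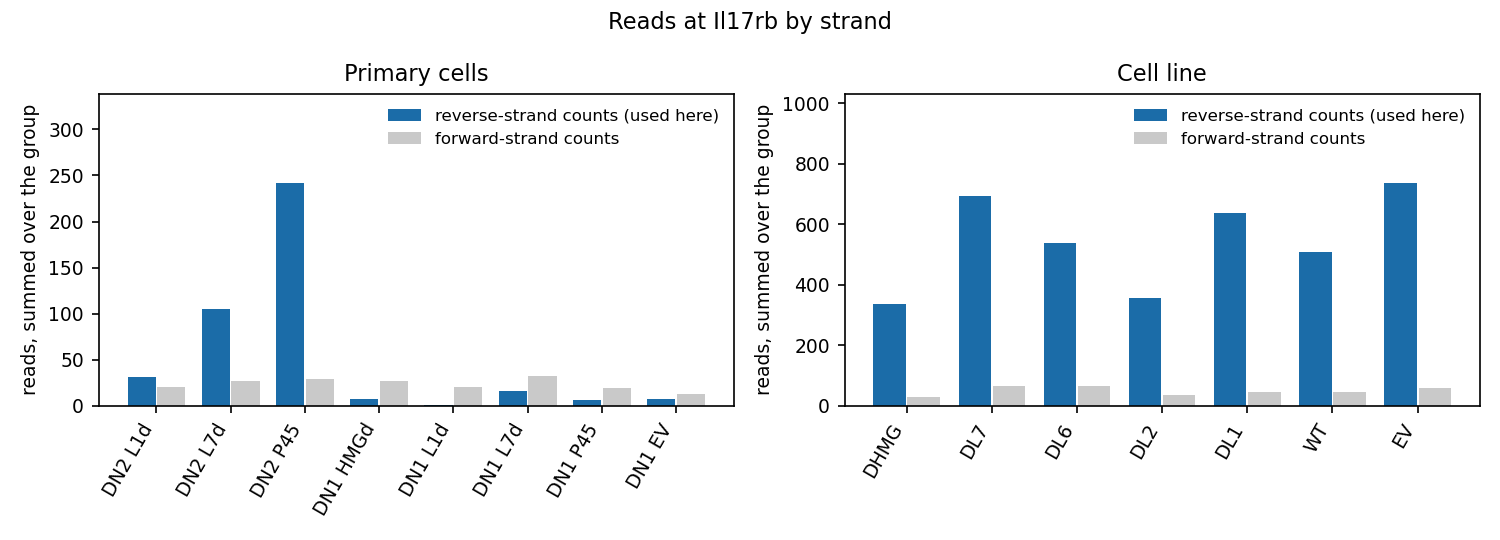
Reads at Il17rb on the strand used here and on the opposite strand, summed over the replicates of each group, in primary cells (left) and in the line (right). In DN1 groups the opposite strand holds more reads (13 to 33) than the Il17rb strand (1 to 16).

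Il18r1 was the member whose levels overlapped between the stages. With P45 it read 7.52 and 6.66 CPM in DN2, against 1.68 and 1.26 CPM in DN1 (log2 fold change 2.28 ± 0.32 SE, adjusted p = 3.69e-05). With L1d it read 2.15 and 2.89 CPM in DN2, against 3.45 and 3.46 CPM in DN1, where both DN2 replicates were lower and the difference was not called (log2 fold change -0.45 ± 0.35 SE, adjusted p = 0.336). With L7d the DN2 replicates stood apart, at 7.82 and 3.29 CPM, against 2.62 and 2.77 CPM in DN1 (log2 fold change 1.02 ± 0.30 SE, adjusted p = 0.0142). The L7d call was lost without DN2 L7d replicate 1 (log2 fold change 0.33, adjusted p = 0.378) and without either DN1 L7d replicate (adjusted p = 0.0656 and 0.0571), and also with only the compared groups in the fit (adjusted p = 0.0713). The libraries summed in DN2 L7d replicate 1 ran from 5.58 to 8.95 CPM and those in replicate 2 from 3.02 to 3.57 CPM.

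Replicate 1 of DN2 L7d was also above replicate 2 for Rora, Il17rb, Pdcd1, Zbtb16 and Icos. The T lineage markers, Il2ra included, summed to 856 and 1447 CPM in these 2 replicates, and the granulocyte and monocyte markers to 1213 and 2081 CPM. Each pair of sums is given from low to high and not in the order of the replicates. The part of either list in the members' values was not tested.

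Other genes of the innate lymphoid programme also differed between the stages with P45. Of 12 precursor factors 11 were tested, 5 were higher and 4 lower in DN2, with a median log2 fold change of 0.18 against -0.02 over all genes. Tox, an HMG box factor needed for innate lymphoid precursors, averaged 18.6 CPM in DN2 and 0.586 CPM in DN1 (log2 fold change 5.03, adjusted p = 7.79e-08). Gata3 averaged 43.9 CPM in DN2 and 2.73 CPM in DN1 (log2 fold change 4.06, adjusted p = 1.97e-07). Zbtb7b averaged 27.3 CPM in DN2 and 85.8 CPM in DN1 (log2 fold change -1.65, adjusted p = 7.27e-08). All 8 tested precursor surface genes of 10 were higher in DN2, with a median log2 fold change of 1.54. Il7r, the receptor chain for IL-7, averaged 9.21 CPM in DN2 and 1.40 CPM in DN1. Of 16 T lineage markers 13 were tested, 10 were higher and 1 was lower in DN2, while all 14 granulocyte and monocyte markers were lower. The T lineage list includes Il2ra, whose product CD25 was used in the sort. Among listed genes, Il2rb, Cd3g and Rag1 had 0 reads in DN1 P45 and 282, 387 and 127 in DN2 P45. The counts of genes called are therefore a description. Mast cell and basophil markers summed to 215.9 to 259.3 CPM in DN2 P45 and 166.9 to 181.1 CPM in DN1 P45. OP9 stroma markers summed to 38.02 to 99.53 CPM in DN2 P45 and 108.1 to 146.2 CPM in DN1 P45. The part of these marker lists in the members' stage differences was not tested.

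**Figure D4:**
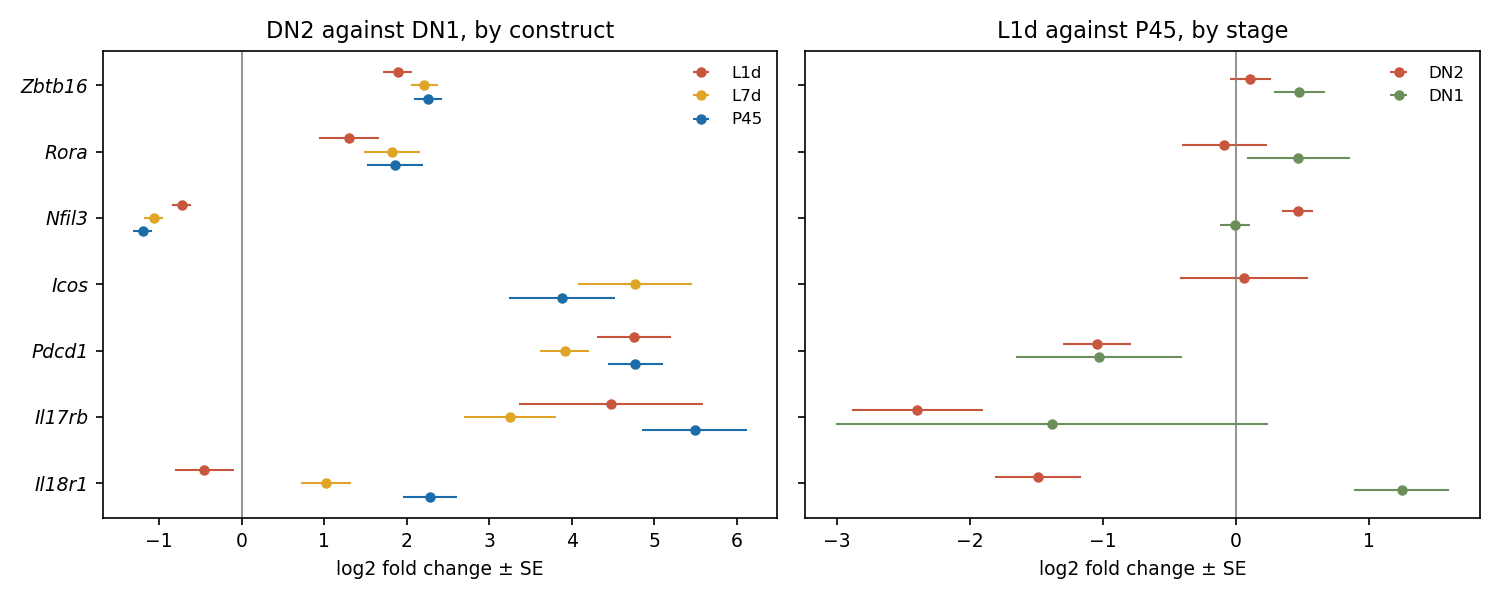
Log2 fold changes (± SE) of the 7 genes for DN2 against DN1 with L1d, L7d and P45 (left), and for L1d against P45 in DN2 and DN1 (right). Points for Icos that involve DN1 L1d, which held 0 reads, are left out. The stage differences of Icos and Il17rb, and those of Pdcd1 with P45 and L1d, are drawn as a description only. On the right, Il18r1 lies at -1.49 in DN2 and 1.25 in DN1.

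In DN2 cells, 4 members differed between L1d and P45. Il17rb, Il18r1 and Pdcd1 fell with L1d, Nfil3 rose, and Rora, Zbtb16 and Icos did not pass the test, where 10.9% of all genes were called and 2.8% were called lower. Il17rb read 0.912 and 1.04 CPM with L1d, against 4.87 and 5.48 CPM with P45 (log2 fold change -2.39 ± 0.49 SE, adjusted p = 0.00592). The replicates were far apart, and the call was kept whichever of the 4 replicates was left out. Il18r1 read 2.15 and 2.89 CPM with L1d, against 7.52 and 6.66 CPM with P45 (log2 fold change -1.49 ± 0.32 SE, adjusted p = 0.008). They did not overlap either, and the call was lost without P45 replicate 1 (adjusted p = 0.0644).

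Pdcd1 read 9.65 and 6.95 CPM with L1d, against 19.9 and 14.2 CPM with P45 (log2 fold change -1.04 ± 0.26 SE, adjusted p = 0.0165). Both L1d replicates were lower, and the call was lost without L1d replicate 2 (adjusted p = 0.154) or P45 replicate 1 (adjusted p = 0.195), and with only the compared groups in the fit (adjusted p = 0.0523). Nfil3 read 37.0 and 36.5 CPM with L1d, against 27.7 and 25.4 CPM with P45 (log2 fold change 0.47 ± 0.12 SE, adjusted p = 0.0187). Both L1d replicates were higher, and the call was lost whichever of the 4 replicates was left out, with adjusted p of 0.0646 to 0.179. For the members not called, the log2 fold change was -0.09 ± 0.32 SE for Rora, 0.11 ± 0.15 SE for Zbtb16 and 0.07 ± 0.48 SE for Icos.

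Markers of other cells moved with these members in the same comparison. Of the 13 tested T lineage markers 10 fell with L1d and none rose, and the list summed to 510.1 to 572 CPM with L1d and 1428 to 1562 CPM with P45. Il2ra, which fell, holds much of that sum in DN2 cells. Cd3d, Cd3e, Cd3g and Ptcra were at 0 in DN2 L1d. Of 14 granulocyte and monocyte markers 9 rose, and they summed to 3940 to 4697 CPM with L1d and 1770 to 1810 CPM with P45. Of 11 mast cell and basophil markers 7 rose, and they summed to 459.7 to 469.2 CPM with L1d and 215.9 to 259.3 CPM with P45. None of these 25 was at 0 in either group. Their part in the members' changes was not tested. The OP9 stroma markers, none called, ran from 26.98 to 209 CPM between the 2 L1d replicates and from 38.02 to 99.53 CPM between those of P45.

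Of 11 tested innate lymphoid precursor factors 3 rose and 3 fell with L1d in DN2. Id2, which opposes E proteins in innate lymphoid precursors, averaged 66.9 CPM with L1d and 38.1 CPM with P45 (log2 fold change 0.81, adjusted p = 0.000657). Gata3 averaged 15 CPM with L1d and 43.9 CPM with P45 (log2 fold change -1.55, adjusted p = 0.00397), and Bcl11b 1.00 CPM with L1d and 18.9 CPM with P45 (log2 fold change -4.25, adjusted p = 0.00439). Among group 2 genes, Il1rl1 and Hpgds rose and Il2ra, also listed as a T lineage marker, fell, of 6 tested. Among 15 tested partners of the members 2 rose and 2 fell. Cd274, which encodes the PD-1 ligand PD-L1, averaged 43.5 CPM with L1d and 19 CPM with P45 (log2 fold change 1.19, adjusted p = 0.000238). Ctla4, a relative of Icos, averaged 0.188 CPM with L1d and 2.28 CPM with P45.

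With L7d in DN2, no member was called against P45, where 0.293% of all genes were called. DESeq2 called none of them, and 2 had an unadjusted p under 0.05. Il17rb, at 3.49 and 1.67 CPM with L7d, was below both P45 replicates (log2 fold change -1.03 ± 0.44 SE, adjusted p = 0.579). Zbtb16, at 41.2 and 36.3 CPM with L7d, was above both P45 replicates (log2 fold change 0.49 ± 0.15 SE, adjusted p = 0.283). The other 5 overlapped between the groups.

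In DN1 cells Il18r1 was the member that differed most often, and it was highest with EV. It read 1.68 and 1.26 CPM with P45, against 6.88 and 6.45 CPM with EV (log2 fold change -2.20 ± 0.33 SE, adjusted p = 0.0005). It was the 1 member called with P45, where 7.46% of all genes were called, and the call was kept whichever of the 4 replicates was left out. With L7d it read 2.62 and 2.77 CPM, also below both EV replicates (log2 fold change -1.31 ± 0.30 SE, adjusted p = 0.0197). That call was lost whichever of the 4 replicates was left out, with adjusted p of 0.069 to 0.161.

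With L1d, at 3.45 and 3.46 CPM, Il18r1 was below both EV replicates and was not called (log2 fold change -0.95 ± 0.32 SE, adjusted p = 0.323). With HMGd, at 5.45 and 4.74 CPM, it was again below both EV replicates and not called (log2 fold change -0.38 ± 0.31 SE, adjusted p = 0.795). Against P45, it was higher with HMGd (log2 fold change 1.81 ± 0.34 SE, adjusted p = 0.00544), the 1 member called where 4.86% of all genes were called. That call was lost without P45 replicate 2 (adjusted p = 0.0846). The order of means in DN1 was EV (6.67 CPM), HMGd (5.09), L1d (3.45), L7d (2.69) and P45 (1.47), and no 2 of these groups overlapped.

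Il18rap, the partner chain of the IL-18 receptor, followed a like order in DN1 at a higher level. Its values were seen before it was chosen, so its p-values are a description. It read 40.4 and 40.1 CPM with P45, against 91.1 and 83.5 CPM with EV (log2 fold change -1.12 ± 0.11 SE, adjusted p = 1.31e-05). It fell with L7d (51.7 and 51.9 CPM, log2 fold change -0.76 ± 0.11 SE, adjusted p = 0.000776) and L1d (55.4 and 54.8 CPM, log2 fold change -0.67 ± 0.11 SE, adjusted p = 0.0127). With HMGd it read 81.8 and 87.9 CPM, overlapped EV and was not called. Il18rap starts 14507 bases after the end of Il18r1 on the same strand.

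The granulocyte and monocyte markers moved in the same direction in DN1 cells. With P45 8 of 14 fell and none rose, and they summed to 12560 to 14020 CPM with P45 and 22040 to 22210 CPM with EV. With HMGd against P45 7 of 14 rose, and the sum was 16480 to 19820 CPM with HMGd. With L7d 7 fell against EV, to a sum of 14060 to 15770 CPM. Of 11 mast cell and basophil markers 4 fell with P45, 4 fell with L7d and 6 rose with HMGd against P45. The mast cell and basophil sum was 166.9 to 181.1 CPM with P45 and 344.9 to 370.3 CPM with EV. None of the 25 markers was at 0 in any DN1 group, and their part in the level of Il18r1 was not tested.

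With L7d, Zbtb16 and Pdcd1 read higher than with EV in DN1, beside the fall of Il18r1. The test called 3 members where 5% of all genes were called, a count that includes Pdcd1, whose call is a description only. Zbtb16 read 7.60 and 9.10 CPM with L7d, against 4.45 and 4.88 CPM with EV (log2 fold change 0.84 ± 0.18 SE, adjusted p = 0.0137). Pdcd1 read 0.862 and 1.53 CPM with L7d, against 0.234 and 0.501 CPM with EV (log2 fold change 1.75 ± 0.48 SE, adjusted p = 0.0481). Neither pair of groups overlapped. Pdcd1 held 73 reads with L7d and 13 with EV. L7d was the DN1 group with the most Pdcd1 reads, so this call is given as a description. Both calls were lost without either EV replicate or without L7d replicate 2, with adjusted p of 0.0596 to 0.184 for Zbtb16 and 0.0779 to 0.498 for Pdcd1. The Pdcd1 call was also lost with only the compared groups in the fit (adjusted p = 0.0707). Zbtb16 was also above both EV replicates with HMGd (6.58 and 5.32 CPM), L1d (9.65 and 6.87 CPM) and P45 (5.58 and 5.90 CPM), and was called in none of these.

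No member was called in DN1 for L1d or HMGd against EV, or for L1d or L7d against P45. All genes called were 0.473%, 0.00666%, 1.33% and 0.00666% in these comparisons. Members with an unadjusted p under 0.05 numbered 2, 1, 3 and 3 in the same order, and DESeq2 called 1, 0, 0 and 0. Rora in DN1 read 0.849 to 3.18 CPM over all groups, Il17rb 0 to 0.400 CPM and Icos 0 to 0.194 CPM, which rest on at most 83, 12 and 6 reads per replicate. Nfil3 read 48.1 to 72.3 CPM in DN1, and its 5 groups overlapped from one to the next in the order of their means.

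The effect of L1d against P45 on Il18r1 differed between the stages. It was -1.49 (log2) in DN2 and 1.25 ± 0.36 SE in DN1, the second of which was not called (adjusted p = 0.132), and the difference of the 2, tested as an interaction, was -2.73 ± 0.48 SE (adjusted p = 0.0106). It was the 1 member called, where 1.58% of all genes were. The call was lost without DN1 L1d replicate 2 (adjusted p = 0.0554) and without DN1 P45 replicate 2 (adjusted p = 0.0561). For the L7d interaction edgeR called 0 of 15010 genes, 2 members had an unadjusted p under 0.05 and DESeq2 called 11 genes, no member among them.

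The gene next to Il18r1 moved the other way in DN2. Il1rl1 and Il18rap were followed after their values were seen, and their calls were not rerun with replicates left out. The p-values of these 2 genes are therefore a description. Il1rl1 read 24.6 and 24.6 CPM in DN2 L1d, against 6.60 and 8.30 CPM in DN2 P45 (log2 fold change 1.72 ± 0.21 SE, adjusted p = 0.000125). No replicates overlapped, and the interaction of L1d with stage was positive for Il1rl1 (log2 1.42 ± 0.32 SE, adjusted p = 0.0434). For Il18rap it was negative (log2 -0.82 ± 0.16 SE, adjusted p = 0.0194). Il18rap read 31.4 and 24.6 CPM in DN2 L1d, against 39.3 and 33.1 CPM in DN2 P45 (adjusted p = 0.0514). Il1rl1 was also higher in DN2 L7d, at 13.4 and 18.1 CPM, than in DN2 P45 (log2 fold change 1.08 ± 0.21 SE, adjusted p = 0.0479). The mast cell and basophil markers stood in the same order in DN2. They summed to 459.7 to 469.2 CPM with L1d, 345.7 to 359.3 CPM with L7d and 215.9 to 259.3 CPM with P45. Their part in the level of Il1rl1 was not tested.

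**Figure D5:**
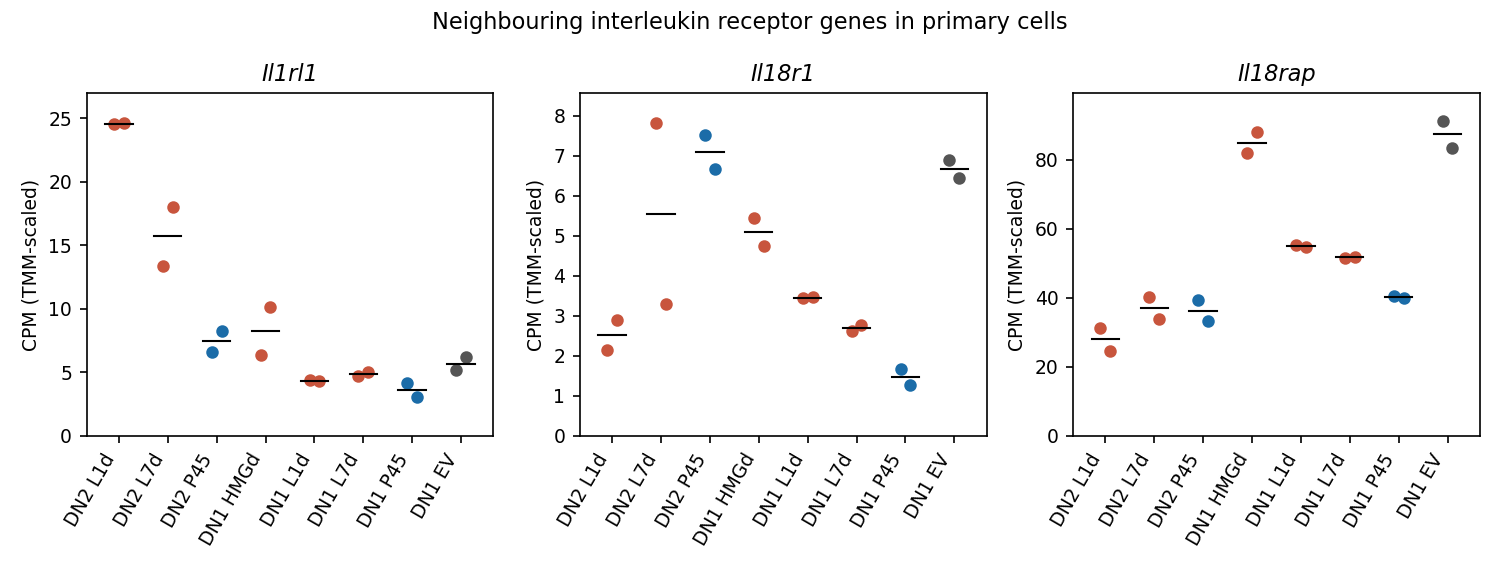
TMM-scaled CPM of Il1rl1, Il18r1 and Il18rap, which lie in this order on chromosome 1, in primary cells. Points are the 2 replicates of a group (blue P45, grey EV, red the other constructs) and bars their mean. In DN2 L1d, Il1rl1 stands at 24.6 CPM while Il18r1 is at 2.15 and 2.89 CPM.

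The genes most like each member were ranked by Pearson's r of log2 CPM. The points share libraries and depth, and in primary cells also the split into DN2 and DN1, so these values describe likeness only. In the line, over 14 libraries, Rora was most like Tle2 (r = 0.95), Scd2 and Gm16576, Il17rb most like Cacna1d (r = 0.89), Cbx2 and Btla, and Nfil3 most like Ero1l (r = 0.94), Ankrd37 and Pafah1b3. Cacna1d lies 31042 bases from Il17rb on the same strand. Over the 16 primary replicates, Zbtb16 was most like Paqr8 (r = 0.98), Gzmb and Myb, Rora most like Gpr25 (r = 0.96), Nfatc3 and Eya2, and Nfil3 most like Mcl1 (r = 0.99), Aifm2 and Fcgr3. Icos was most like Spred1 (r = 0.97), Il12rb2 and Bend4, Pdcd1 most like Smo (r = 0.99), Hmgn1 and Usp6nl, and Il17rb most like Ep400 (r = 0.98), Lrp5 and Tcof1. Il18r1 had the lowest best match, Krt80 (r = 0.87), then Slc9a3r1 and Cdc42se2. Its r with the other members ran from -0.34 for Nfil3 to 0.47 for Il17rb, while Zbtb16 and Pdcd1 stood at 0.95.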

How the data were processed

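Total RNA of sorted cells was made into stranded libraries with a kit that keeps strand (SMARTer Stranded Total RNA-Seq, Pico), per the labels' protocols. The deposited files hold whole-number read counts per Ensembl gene from the authors' processing, in columns for unstranded, forward and reverse reads. The submitters' processing notes name STAR 2.5.0a, HTSeq 0.6.1 and GRCm38. Their roles and the annotation release are not given in the sources used here.

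The reverse-strand counts were used, since forward reads were 5.44 to 8.56% of stranded gene reads in the line and 4.88 to 6.96% in primary cells. Rows that name no gene, 56.06 to 73.91% of each library's counts, were left out. Of 45706 genes 45143 matched a symbol. Of 59 libraries 58 were used, because 1 file was incomplete. Primary libraries were summed within a B number to 16 replicates, since the labels give B and T numbers without their meaning.

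The line (14 libraries, 10939 genes after filterByExpr) and the primary cells (16 replicates, 15010 genes) were fitted separately with edgeR 4.0.16 in R 4.3.3 (TMM, quasi-likelihood test, all groups of the fit, Benjamini-Hochberg adjustment, threshold 0.05). The replicate number was not in the model. Scripts were tested on simulated data. Alternatives were DESeq2 1.42.0, RLE size factors, no filter on low counts, counts ignoring strand, the compared groups alone, a replicate block, each replicate left out, each T library as a replicate, and removal of ribosomal and mitochondrial RNA. Counting limits cover counting error only.

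The members, gene lists and tests were chosen with earlier results of these data known. Named genes were the 7 members, up to 4 genes of each list with the lowest adjusted p in a comparison, the 3 most alike genes by r (prior count 2), and Tcf7. Il18rap and Il1rl1 were followed across groups as neighbours of Il18r1, a choice made after their values were seen.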

Additional observations from a re-analysis of the deposited data

Results flagged for a closer look

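The difference of Il18r1 between L1d and P45 was not the same in DN2 and DN1 cells, and in DN1 cells it was not called. The difference between the 2 log2 fold changes was -2.73 ± 0.48 SE (edgeR's quasi-likelihood interaction test, adjusted p = 0.0106). That call was lost without DN1 L1d replicate 2 and without DN1 P45 replicate 2.

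For Rora, every DL1 library of the line lay below both EV libraries (log2 fold change -1.08, called). Both DN1 L1d replicates lay above both DN1 EV replicates, but the difference was not called (log2 fold change 0.59, adjusted p = 0.796). For Nfil3, every DL7 library of the line lay above both EV libraries, and this was not called (log2 fold change 0.32, adjusted p = 0.464). Both DN1 L7d replicates lay below both DN1 EV replicates, which was not called either (log2 fold change -0.26, adjusted p = 0.245). The pairs were picked because replicates did not overlap and went opposite ways. How many of all genes do so was not counted. These pairs come from separate fits and from constructs whose names differ in spelling, and the difference between the line and primary cells was not tested.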

How the results depend on the processing

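Of 44 member calls in 131 tests, 27 were kept under every alternative run, 17 were lost under at least 1, and none changed sign. These counts include the stage differences of Icos and Il17rb, and those of Pdcd1 with P45 and L1d. They also include Pdcd1 in DN1 L7d against EV. All of these are described and not read as tests. Of 87 tests with no call, 14 gained one somewhere. Where an alternative moved the number of members called in a comparison by over 1.5 times, that number was 1 with DESeq2 for DL1 and for DHMG against EV (2 before), and 1 for DN1 L1d against EV (0 before). With only the compared groups they numbered 1 for DL1 against EV, 2 for DL2 against WT, 1 for DN1 L1d against EV and 1 for DN1 L1d against P45. With no filter on low counts they numbered 2 for DN1 L1d against EV and 1 against P45. With each T library as a replicate they numbered 2 for DN1 L1d against EV, 1 for DN1 L1d against P45, 2 for DN1 L7d against P45, 2 for DN2 L7d against P45, 2 for the L1d interaction and 1 for the L7d interaction. Calls changed without moving that number as far for Nfil3 in DL6 against WT (lost with DESeq2, with no filter and ignoring strand) and for Il17rb between the L1d stages (lost ignoring strand). With only the compared groups, Pdcd1 in DN1 L7d against EV, Pdcd1 in DN2 L1d against P45 and Il18r1 between the L7d stages lost their calls, and Nfil3 in DL7 against WT gained one. With each T library as a replicate, Nfil3 in DN1 L7d against EV gained one. RLE size factors and removal of ribosomal and mitochondrial RNA changed no call. Beyond what each alternative's construction shows, the cause of these changes was not tested.

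Leaving out each replicate gave 1 to 2 for DL1 and for DHMG against EV, 0 to 1 for DL1 against WT, 1 to 2 for DL6 and for DL7 against WT, and 0 to 1 for DHMG against WT. In primary cells it gave 0 to 2 for DN1 L7d against EV, 0 to 1 for DN1 HMGd against P45, 1 to 3 for DN2 L1d against P45, 5 to 6 for the L1d stage difference, 6 to 7 for the L7d one and 0 to 1 for the L1d interaction. The replicate left alone was assumed to vary like the other groups.

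Same-numbered replicates deviated together with r of -0.04 to 0.04 in the line and -0.03 to 0.26 in primary cells (11 of 28 pairs over 0.1, and 27 over 0). The rule used here takes numbers to pair samples only where every pair is over 0.1, so the block is given as an alternative, and the shares of all genes called come from the fit without it. With the replicate block, 44 member calls were made, and none changed. Genes called with the block numbered 157 for DN1 L1d against EV (71 without it), 176 for DN2 L7d against P45 (44 without it) and 516 for the L1d interaction (237 without it). Over all genes, DESeq2 called 85 to 2156 in the comparisons of the line, against 164 to 3331 with edgeR, and each T library as a replicate gave 241 to 7967 in primary cells, against 0 to 6493. Icos and Il17rb had at most 8 and 16 reads per DN1 group.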
